A study of Mus musculus with 59 samples.

Results

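The collagen alpha chains are the subunits of the collagens, the main structural proteins of the extracellular matrix. They were taken as every array probe whose accession matched a RefSeq gene symbol of the form Col, number, a, number. The rule found 61 probes of 42 genes among 55681 probes of 37163 genes or transcripts. RefSeq lists 44 such mouse genes, and Col12a1 and Col6a3 had no matched probe. Where a gene had several probes, as 14 of the 42 did, the values are those of its brightest probe unless another is named.

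The animals were adult male Muta™Mouse of about 16 weeks, a transgenic strain made for mutation assays that carries the same transgene in every group. They received benzo(b)fluoranthene, a polycyclic aromatic hydrocarbon, in olive oil by oral gavage on 28 consecutive days at 25 (low), 50 (medium) or 100 (high) mg/kg-bw/day, or olive oil alone (vehicle, 0 mg/kg-bw/day). Lung, liver and forestomach were taken 72 hours after the last dose from 20 mice, 5 per dose group, and gave 59 arrays, since the low-dose lung group had 4. The titles and treatment text name benzo(b)fluoranthene, whereas benz(a)anthracene stands in 1 label field and in the design text.

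Each collagen molecule is a triple helix of alpha chains, and the chains fall into classes by the structure they build. Fibrillar chains form the rope-like fibrils that give tissue its tensile strength, type IV chains form the sheet under epithelia and endothelia called the basement membrane, and type VI chains form beaded filaments in between. Other classes decorate fibrils (the FACIT chains), anchor epithelia to the tissue below (Col7a1 and the transmembrane chain Col17a1) or, as the multiplexins Col15a1 and Col18a1, sit at basement membranes and can release the anti-angiogenic fragment endostatin or its relative. In lung the gas-exchange surface rests on a type IV sheet, and in liver excess fibrillar collagen is the hallmark of fibrosis.

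Each value is a log2 ratio of the tissue RNA, labelled with Cy5, over a universal mouse reference RNA labelled with Cy3 on the same array. A ratio of 0 is therefore the level of the reference, and a negative ratio is a lower level than in the reference, not absence. Where neither channel rises above background the ratio also lies near 0, and it then bounds nothing. A gene was called when a probe changed at least 1.5-fold with a p of at most 0.05 in limma's moderated test, adjusted over all probes by Benjamini-Hochberg. The labels do not say whether any mice shared a cage or batch, so the p-values measure the spread between these mice, and in whole tissue fewer cells of a type and less RNA per cell cannot be told apart.

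Between 37.1% and 68.8% of all probes were well above background in Cy5 on 51 arrays. The other 8 arrays were the whole of liver slide 3, which held the livers of 3 high-dose, 2 medium-dose, 2 low-dose mice and 1 vehicle mouse and had at most 12.9% of probes above background. The highest share, 68.8%, was on 1 medium-dose lung array. Tissue markers followed the labels in the vehicle mice: the mean log2 ratio of the lung genes Sftpc and Scgb1a1 was 7.49 to 7.78 in lung and at most 2.69 elsewhere, that of the liver genes Alb and Apoa2 was 4.91 to 6.54 in liver and at most 1.30 elsewhere, and that of 4 keratins of stratified squamous epithelium was 4.77 to 4.99 in forestomach and below 0 elsewhere.

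Of the 42 chains, 24 were well above background on every lung array, 23 on every forestomach array and 3 on every liver array (Col18a1, Col1a2 and Col6a1). The liver count includes the weak arrays of slide 3. Col1a1, Col3a1 and Col4a2 were above background on 13 of the 20 liver arrays, and Col4a1, Col5a1 and Col6a2 on 12. Above background on no array of the tissue were 15 chains in liver, 10 in forestomach and 7 in lung. Col9a3, Col10a1, Col11a1 and Col22a1 failed the background test on each of the 59 arrays. All but Col22a1 of these are chains known from cartilage. No collagen spot was saturated.

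In the vehicle mice the collagen chains differed strongly by tissue. Between lung and liver 20 of 42 were called, 15 higher and 5 lower in lung, where 30.5% of all genes were called (18% higher and 12.7% lower). Between lung and forestomach 15 of 42 were called, 6 higher and 9 lower in lung, beside 24.2% of all genes (12.6% higher and 11.7% lower). Between forestomach and liver 19 of 42 were called, 17 higher and 2 lower in forestomach, beside 25.5% of all genes (15.1% higher and 10.5% lower). Forestomach thus had more chains above than below each of the other tissues. Tissue and slide cannot be told apart here, since each tissue was hybridised on its own slides, and with slide as a random block the counts were 19, 15 and 19. The vehicle liver of mouse 5 lay on that weak slide, and without that mouse 22, 17 and 19 chains were called.

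**Figure D1:**
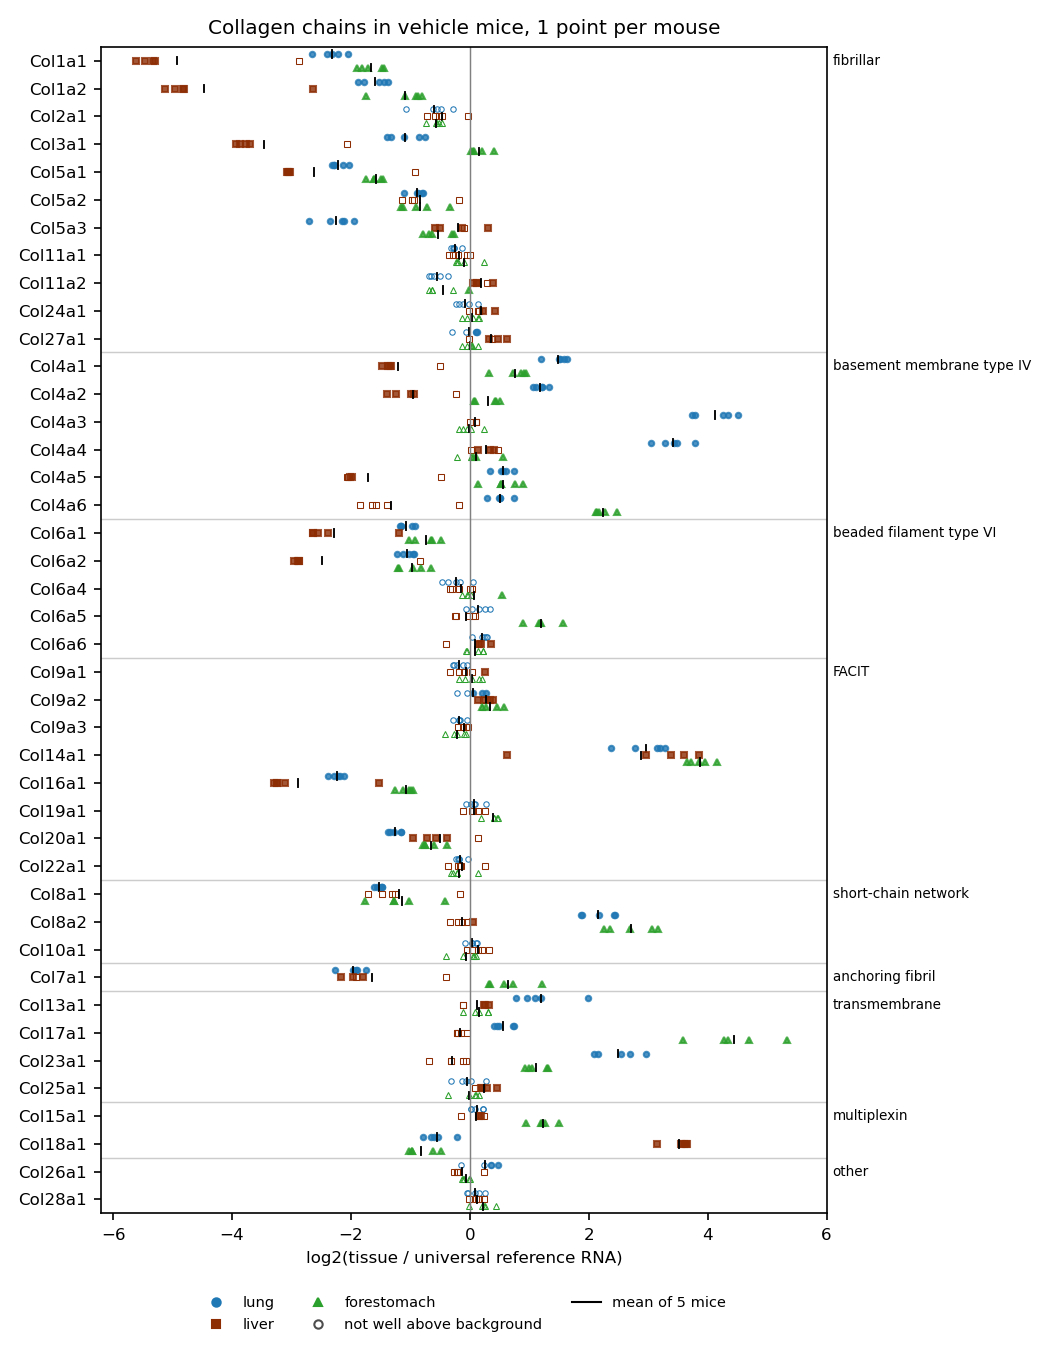
Log2 ratio of tissue over reference RNA (x axis) for the 42 collagen chains (rows, grouped by class) in the 5 vehicle mice of each tissue; 1 point per mouse, open where the probe was not well above background, with a black bar at the mean. Col4a3 and Col4a4 stand apart in lung, Col17a1 in forestomach and Col18a1 in liver, and the single liver point to the right of the others in Col1a1, Col1a2 and Col3a1 is mouse 5.

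Of the type IV chains 6 of 6 were called higher in vehicle lung than in liver, with a median difference of 2.48 in log2 ratio. Against forestomach, Col4a1, Col4a2, Col4a3 and Col4a4 were called higher in lung, Col4a6 was called lower and Col4a5 was not called. Col4a1, Col4a2, Col4a5 and Col4a6 were also called higher in forestomach than in liver. Col4a3, which with Col4a4 and Col4a5 builds the specialised basement membrane of the lung alveolus and kidney glomerulus, read 4.35, 4.26, 3.79, 3.74 and 4.51 in the 5 vehicle lungs. In the vehicle livers it read 0.10, 0.10, 0.01, 0.10 and 0.10, and in the forestomachs 0.23, -0.05, -0.18, -0.11 and 0.02. Every lung lay far above every liver and forestomach, where the probe failed the background test at every dose. Col4a3 was therefore at least 13.5-fold higher in lung than in liver (difference 4.05 ± 0.13 SE, adjusted p = 1.65e-12) and at least 13.1-fold higher than in forestomach. Over all 19 lung arrays it stayed between 3.56 and 4.79.

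Col4a4, the partner of Col4a3 in the same network, read 3.44, 3.28, 3.05, 3.49 and 3.79 in the vehicle lungs, 0.34, 0.02, 0.13, 0.40 and 0.47 in the livers, and 0.55, 0.05, -0.21, 0.11 and 0.02 in the forestomachs. The lungs again did not overlap with either tissue. It was 8.82-fold higher in lung than in liver (3.14 ± 0.15 SE, adjusted p = 8.91e-11) and 9.91-fold higher than in forestomach (3.31 ± 0.15 SE, adjusted p = 5.5e-11), and its 2 other probes were called the same way.

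The general basement membrane chains Col4a1 and Col4a2, which form one trimer, followed the order lung, forestomach, liver. Col4a1 had a mean log2 ratio of 1.49 ± 0.17 (SD, n = 5) in vehicle lung, 0.75 ± 0.26 in forestomach and -1.20 ± 0.39 in liver. Col4a2 had means of 1.19 ± 0.11, 0.30 ± 0.21 and -0.96 ± 0.44. For both chains no vehicle lung overlapped with a vehicle forestomach or liver. The lung level exceeded the liver level 6.45-fold for Col4a1 (2.69 ± 0.17 SE, adjusted p = 2.48e-09) and 4.43-fold for Col4a2 (2.15 ± 0.17 SE, adjusted p = 3.95e-08), and the forestomach level 1.67-fold and 1.85-fold. Under centring on each array's median the forestomach difference of Col4a2 was 0.75 and was not called (adjusted p = 0.259).

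Col4a6, which pairs with Col4a5 in basement membranes of smooth muscle and stratified epithelium, was highest in forestomach by its brightest probe. That probe read 2.13, 2.28, 2.14, 2.18 and 2.48 in the vehicle forestomachs, 0.50, 0.74, 0.29, 0.49 and 0.51 in the lungs, and -1.85, -1.40, -1.65, -1.57 and -0.19 in the livers. The 3 tissues did not overlap, and no liver array was well above background for this probe. The forestomach level was 3.33-fold above lung (adjusted p = 1.81e-05) and at least 11.1-fold above liver (3.58 ± 0.23 SE, adjusted p = 4.26e-09). The probes of Col4a6 disagreed: the other one, well above background in all 5 vehicle forestomachs and lungs and in 4 livers, gave 0.05 for forestomach against liver (adjusted p = 0.79), -0.38 for lung against forestomach and -0.33 for lung against liver, and was not called. Its partner Col4a5 did not separate lung from forestomach, with means of 0.55 ± 0.15 and 0.57 ± 0.29 (SD, n = 5), and was 4.83-fold higher in lung than in liver (adjusted p = 1.8e-06).

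Among the 11 fibrillar chains, Col1a1, Col1a2 and Col3a1, the chains of the abundant type I and type III fibrils, were called higher in both lung and forestomach than in liver. Col1a1 read -2.65, -2.21, -2.40, -2.05 and -2.31 in the vehicle lungs, -1.89, -1.45, -1.81, -1.72 and -1.47 in the forestomachs, and -5.47, -5.30, -5.61, -5.33 and -2.88 in the livers of mice 1 to 5. All were below the reference, the livers lowest, and the last liver value is mouse 5 on the weak slide. Col1a1 was 6.05-fold higher in lung than in liver (2.6 ± 0.39 SE, adjusted p = 4.4e-05) and 9.53-fold higher in forestomach (3.25 ± 0.39 SE, adjusted p = 5.49e-06). Without mouse 5 the forestomach difference was 3.71.

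Col1a2, the second chain of type I collagen, had means of -1.60 ± 0.22 in lung, -1.08 ± 0.39 in forestomach and -4.47 ± 1.04 in liver (SD, n = 5). It was 7.32-fold higher in lung (2.87 ± 0.37 SE, adjusted p = 9.14e-06) and 10.5-fold higher in forestomach (3.39 ± 0.37 SE, adjusted p = 2.06e-06) than in liver. Col3a1 read 0.07, 0.20, 0.41, 0.02 and 0.06 in the vehicle forestomachs, -1.10, -0.86, -1.32, -0.76 and -1.40 in the lungs, and -3.94, -3.70, -3.87, -3.76 and -2.06 in the livers. These 3 sets did not overlap. Col3a1 was 2.36-fold higher in forestomach than in lung (adjusted p = 0.00252) and 12.3-fold higher than in liver (3.62 ± 0.28 SE, adjusted p = 4.21e-08).

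Col5a3, a minor chain of type V fibrils, ran the other way. It read -2.35, -2.11, -2.15, -1.95 and -2.70 in the vehicle lungs, -0.14, -0.58, -0.50, 0.30 and -0.10 in the livers and -0.78, -0.30, -0.64, -0.68 and -0.26 in the forestomachs. Every lung lay below every liver and forestomach. The lung level fell 4.13-fold short of liver (-2.05 ± 0.17 SE, adjusted p = 8.8e-08) and 3.3-fold short of forestomach (-1.72 ± 0.17 SE, adjusted p = 9.49e-07). Col11a2, a chain of type XI fibrils, was lower in lung than in liver (-0.76 ± 0.12 SE, adjusted p = 0.000108, not well above background in any vehicle lung) and lower in forestomach than in liver by -0.65 (adjusted p = 0.000568), and neither was called under median centring (-0.50 and -0.58).

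The chains that tie stratified epithelium to its basement membrane were highest in forestomach, an organ lined by such epithelium. Col17a1, a transmembrane collagen of the hemidesmosome, read 3.59, 4.70, 5.34, 4.27 and 4.34 in the vehicle forestomachs, 0.74, 0.41, 0.46, 0.49 and 0.73 in the lungs and -0.22, -0.20, -0.15, -0.21 and -0.05 in the livers. The forestomachs stood far above all others. Col17a1 was 14.8-fold higher there than in lung (-3.88 ± 0.22 SE as lung minus forestomach, adjusted p = 1.03e-09) and at least 18.1-fold higher than in liver (4.61 ± 0.22 SE, adjusted p = 1.02e-10).

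Col7a1, the chain of the anchoring fibrils below such epithelium, read 0.34, 1.21, 0.72, 0.32 and 0.58 in the vehicle forestomachs and -1.92, -1.90, -1.96, -1.75 and -2.26 in the lungs. The livers read -2.17, -1.97, -1.80, -1.91 and -0.40, the last again in mouse 5. Forestomach was above both without overlap, 6.02-fold above lung (adjusted p = 1.38e-06) and 4.87-fold above liver (2.28 ± 0.27 SE, adjusted p = 5.21e-06).

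Col18a1 was the chain with the largest excess in liver. Its brightest probe, A_55_P2124791, read 3.61, 3.63, 3.55, 3.66 and 3.15 in the vehicle livers, -0.78, -0.53, -0.61, -0.66 and -0.21 in the lungs and -0.48, -0.98, -1.03, -0.62 and -0.97 in the forestomachs. Liver stood apart from both other tissues, which overlapped with each other. Col18a1 was 16.9-fold higher in liver than in lung (-4.08 ± 0.13 SE as lung minus liver, adjusted p = 1.78e-12) and 20.2-fold higher than in forestomach (-4.33 ± 0.13 SE, adjusted p = 4.94e-13). The other multiplexin, Col15a1, was highest in forestomach (mean 1.22 ± 0.20, SD, n = 5), 2.16-fold above liver (adjusted p = 2.21e-07) and at least 1.78-fold above lung, where it was not well above background in any vehicle mouse. Its other probes, not well above background in any vehicle mouse of the 3 tissues, gave 0.32 and 0.14 for forestomach against liver and were not called.

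The type VI chains Col6a1 and Col6a2, which assemble together, had means of -1.08 ± 0.11 and -1.05 ± 0.12 in vehicle lung, -0.74 ± 0.23 and -0.96 ± 0.24 in forestomach and -2.28 ± 0.62 and -2.49 ± 0.92 in liver (SD, n = 5). Lung exceeded liver 2.29-fold for Col6a1 (adjusted p = 0.000355) and 2.7-fold for Col6a2 (adjusted p = 0.00155). Lung and forestomach were not separated for either. Col6a5 was called higher in forestomach alone, at least 1.82-fold over liver and at least 1.64-fold over lung, with all 5 vehicle lungs and all 5 livers not well above background.

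Other transmembrane and short-chain members were called between tissues as well. Col23a1 had means of 2.49 ± 0.37 in lung, 1.12 ± 0.18 in forestomach and -0.30 ± 0.24 in liver (SD, n = 5), at least 5.75-fold higher in lung than in liver (2.79 ± 0.16 SE, adjusted p = 9.4e-10) and 2.59-fold higher than in forestomach. Col13a1 was 2.12-fold higher in lung than in liver and at least 1.9-fold higher than in forestomach, the latter not called under median centring (0.48, adjusted p = 0.0801). Col8a2, a chain of hexagonal networks, had means of 2.16 ± 0.28 in lung, 2.71 ± 0.41 in forestomach and -0.13 ± 0.15 in liver, and its forestomach level was 7.18-fold above liver (adjusted p = 2.44e-09). Its second probe, above background in 1 vehicle forestomach alone, gave 0.20 and was not called.

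The FACIT chains were mixed. Col16a1 was 3.51-fold higher in forestomach than in liver (adjusted p = 3.35e-05) and 2.24-fold higher than in lung (adjusted p = 0.00201) by its brightest probe. Its other probes gave -0.09 and -0.12 for forestomach against liver and -0.81 and -0.17 for lung against forestomach, none of them called. Col20a1 was 1.7-fold lower in lung than in liver (adjusted p = 0.000807), and under median centring the difference was -0.45 and was not called. Col14a1, which coats fibril surfaces, had high ratios in all 3 tissues, whose medians over all doses were 3.05 (lung), 3.49 (liver) and 3.84 (forestomach). Its brightest probe was not called between tissues, and its second probe was called 1.5-fold lower in lung than in liver (-0.59, adjusted p = 0.00554), a call that sat at the threshold and was lost without vehicle mouse 2, 3 or 4.

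At the high dose in the lung, Col18a1 and Col4a2 were upregulated and no collagen chain was downregulated. That is 2 of 42 chains called, where 1.93% of all genes were called (1.36% upregulated). The count was 8 after median centring, which added Col1a1, Col1a2, Col3a1, Col4a1, Col6a1 and Col16a1, and 4 on the authors' ratios, which added Col3a1 and Col4a1. Median centring moved the median change of all genes to 0.08 and that of the chains to 0.19. The shares of all genes called under these settings are not given here, so the added calls are not read as a result about collagen. At the low and the medium dose no chain was called, where 0.449% (0.422% upregulated and 0.0269% downregulated) and 0.638% of all genes were, and 7 (16.7%) and 3 (7.14%) chains had an unadjusted p below 0.05, against 12.5% and 19.2% of all genes. Over the 4 dose groups as a linear trend the same 2 chains were called, beside 1.64% of all genes. The median change of the 42 chains at the high dose was 0.08 in log2 ratio against 0 over all genes, and 35 of the 42 changed by less than 0.3.

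Col18a1 read -0.78, -0.53, -0.61, -0.66 and -0.21 in the vehicle lungs and 0.37, 1.23, -0.04, 0.52 and 0.84 in the high-dose lungs. All 5 high-dose lungs lay above all 5 vehicle lungs, by the least in mouse 18. The low-dose lungs, at -0.71, -0.71, -0.26 and -0.51, and the medium-dose lungs, at -0.53, -0.33, -0.61, -0.56 and -0.38, stayed within the span of the vehicle group. The high-dose change was 1.14 ± 0.17 SE, a 2.2-fold rise (adjusted p = 0.000245), and the second probe, A_55_P2059352, rose 2-fold (1.00 ± 0.18 SE, adjusted p = 0.00169). Within the lung slides 1, 2 and 3 the high-dose mean exceeded the vehicle mean by 1.45, 0.60 and 0.89. These slides held 2, 1 and 2 high-dose lungs and 2, 2 and 1 vehicle lungs. On slides 2 and 3, 1 of the groups is therefore 1 mouse, here and in the within-slide lung values below.

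Col4a2 read 1.12, 1.33, 1.22, 1.06 and 1.21 in the vehicle lungs and 1.87, 2.02, 2.02, 2.26 and 2.33 in the high-dose lungs. The groups did not overlap. In between, the low-dose lungs read 1.22, 1.47, 1.68 and 1.5 and the medium-dose lungs 1.61, 1.74, 1.12, 1.39 and 1.90, so that the group means rose with each dose step, from 1.19 ± 0.11 to 1.47 ± 0.19, 1.55 ± 0.30 and 2.10 ± 0.19 (SD). The step from the low to the medium mean was smaller than the SD of either group. The low-dose group also includes mouse 6, whose lung array stood apart in other genes, as given below. The low- and medium-dose changes of 0.28 and 0.36 were not called (adjusted p = 0.527 and 0.148). At the high dose Col4a2 rose 1.88-fold (0.91 ± 0.12 SE, adjusted p = 0.000114), and the trend over the full dose range was 0.89 ± 0.12 SE (adjusted p = 7.01e-05). The difference within slides 1, 2 and 3 was 0.72, 0.88 and 1.08.

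Col4a1, the trimer partner of Col4a2, passed the p threshold but stood just below the fold threshold. It read 1.52, 1.5, 1.63, 1.20 and 1.58 in the vehicle lungs and 1.84, 2.15, 2.07, 2.10 and 2.22 in the high-dose lungs. Here too the high-dose lungs lay above all vehicle lungs. The change was 0.58 ± 0.12 SE (adjusted p = 0.00477), with 0.48, 0.65 and 0.57 within the slides. On the authors' own normalized log2 ratios it was 0.60 and on median-centred ratios 1.01, and it was called on both.

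Col3a1 was the other chain that reached the p threshold close to 1.5-fold. It read -1.10, -0.86, -1.32, -0.76 and -1.40 in the vehicle lungs and -0.58, -0.63, -0.82, -0.41 and -0.11 in the high-dose lungs. In this case 4 of 5 high-dose lungs were above all vehicle lungs and the groups overlapped by 1 mouse. The change was 0.58 ± 0.16 SE (adjusted p = 0.0336), and within slides 0.37, 0.21 and 1.14. It too was called on the authors' ratios (0.61) and after median centring (1.02). The other chains of the interstitial matrix gave smaller values that did not pass: Col1a1 changed by 0.33 (adjusted p = 0.109), Col6a1 by 0.35 (adjusted p = 0.0742), Col6a2 by 0.13 and Col1a2 by 0.12, while Col7a1 changed by 0.13 and Col17a1 by 0.14.

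**Figure D2:**
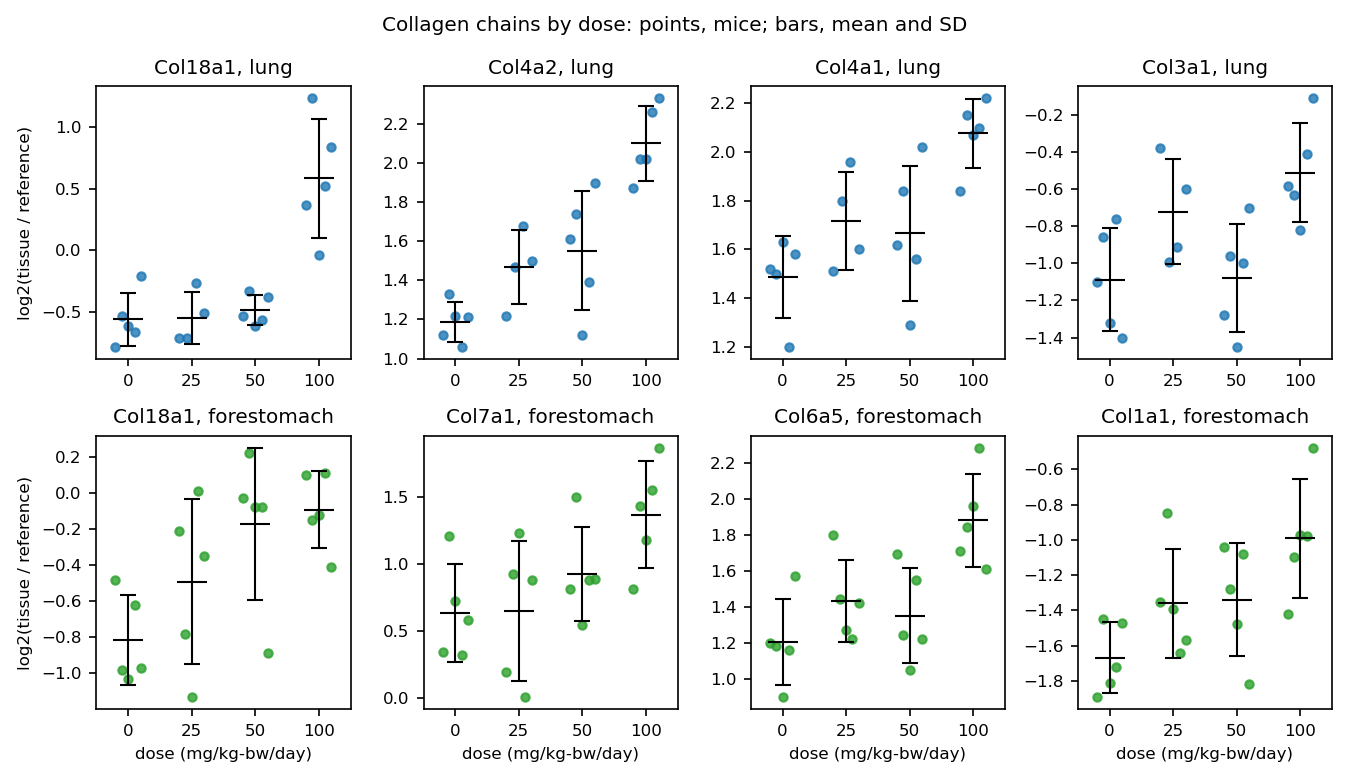
Log2 ratio of tissue over reference RNA (y axis) by dose in mg/kg-bw/day (x axis) for 4 collagen chains in lung (upper row) and 4 in forestomach (lower row); points are mice, bars the mean and SD of each group. In lung all 5 high-dose points of Col18a1, Col4a2 and Col4a1 lie above all vehicle points, and in forestomach those of Col18a1, Col6a5 and Col1a1 do.

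Of the 42 chains, 3 (7.14%) had high-dose lungs wholly above or wholly below the vehicle lungs, close to the 7.26% of all genes for which this held. For the type IV chains with the largest lung excess, Col4a3 and Col4a4, the brightest probes changed by 0.07 and -0.10 and the groups overlapped. In the remaining type IV chains Col4a5 and Col4a6 the changes were -0.03 and -0.01. With slide as a block another probe of Col4a4 was called as well, which made the count 3.

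**Figure D3:**
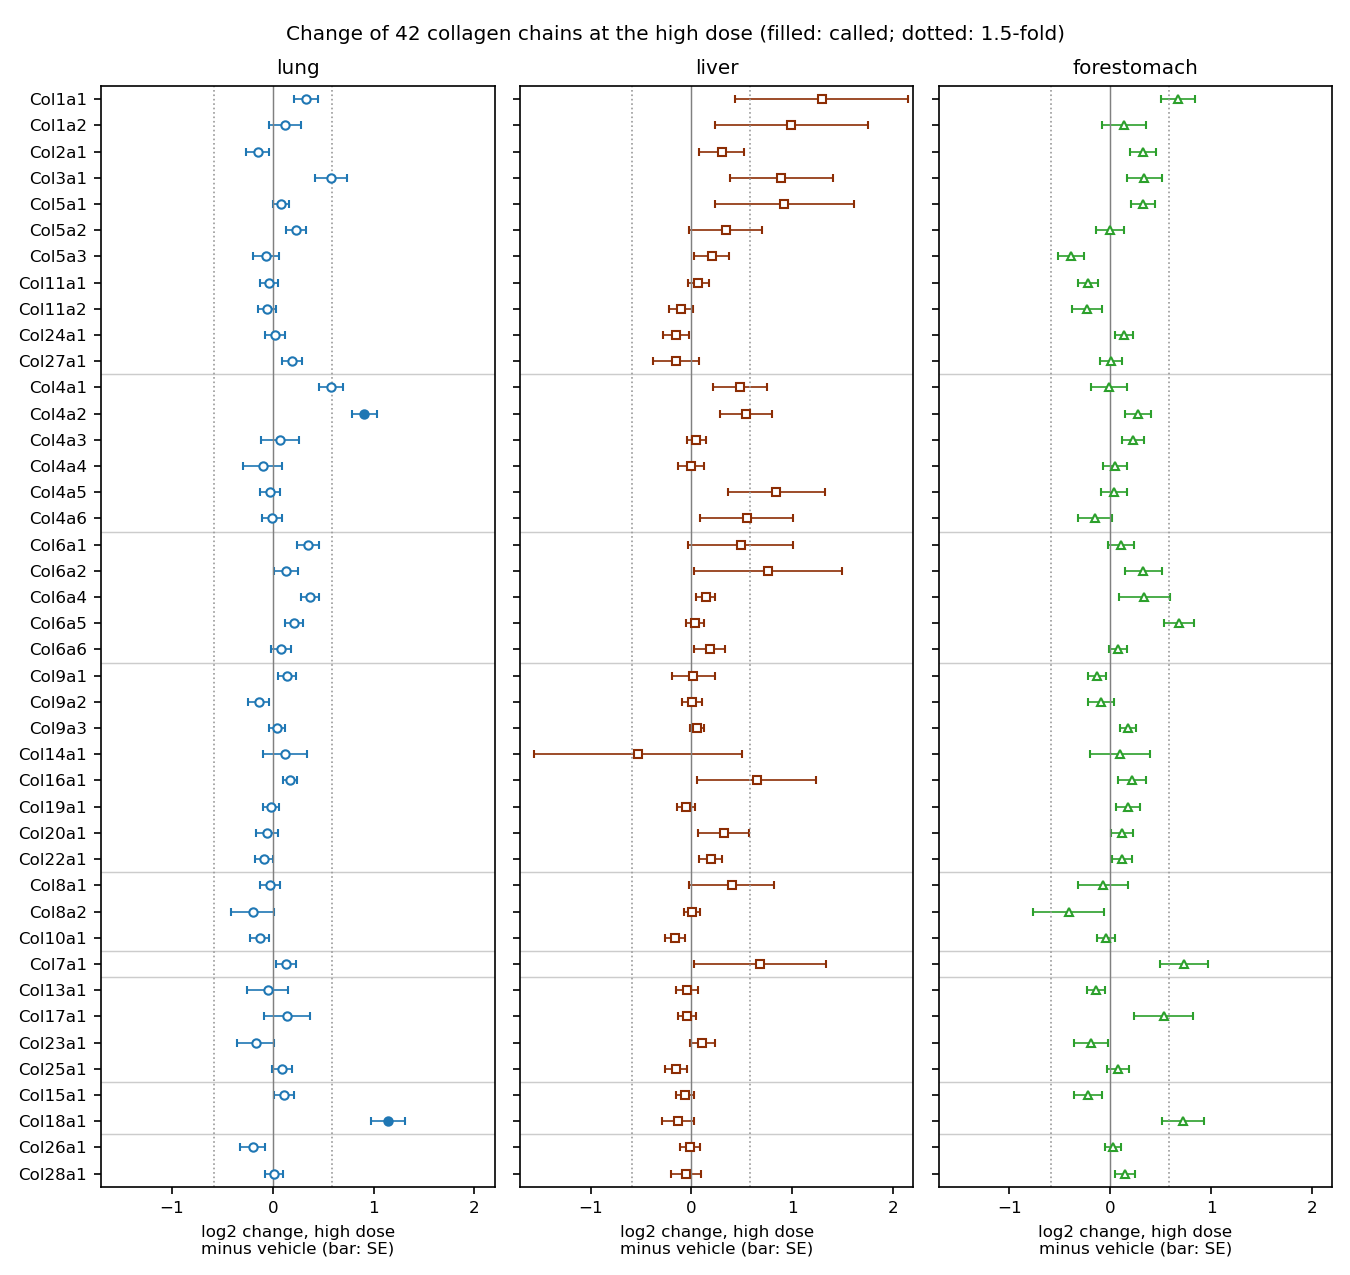
Log2 change from vehicle to the high dose (x axis, bar SE) of the 42 collagen chains (rows, by class) in lung, liver and forestomach; filled symbols are called and dotted lines mark 1.5-fold. Filled symbols are only at Col4a2 and Col18a1 in lung, and the bars are widest in liver.

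The start regions of these genes are printed because Col4a1 and Col4a2 moved together and share theirs. RefSeq (GRCm38.p6) places both starts on chromosome 8 on opposite strands, so that the windows from 250 bases before to 50 after each start overlap by 78 bases, at chr8:11312777-11312854. The windows are given 5′ to 3′ with the shared bases in capitals, for Col4a1 at chr8:11312777-11313076 on the minus strand and for Col4a2 at chr8:11312555-11312854 on the plus strand.
Col4a1: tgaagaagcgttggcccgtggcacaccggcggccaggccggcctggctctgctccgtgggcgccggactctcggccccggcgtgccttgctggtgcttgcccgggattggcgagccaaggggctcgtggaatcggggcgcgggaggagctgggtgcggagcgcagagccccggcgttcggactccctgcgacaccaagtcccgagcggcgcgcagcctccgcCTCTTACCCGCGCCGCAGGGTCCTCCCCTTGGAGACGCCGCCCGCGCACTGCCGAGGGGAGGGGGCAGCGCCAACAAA
Col4a2: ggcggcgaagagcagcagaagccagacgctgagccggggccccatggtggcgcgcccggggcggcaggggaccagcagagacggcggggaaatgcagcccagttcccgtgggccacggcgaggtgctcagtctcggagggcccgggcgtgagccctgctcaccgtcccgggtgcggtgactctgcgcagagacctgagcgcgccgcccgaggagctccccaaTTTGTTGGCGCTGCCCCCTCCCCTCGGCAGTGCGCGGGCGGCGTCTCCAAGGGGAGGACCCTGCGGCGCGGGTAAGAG
Read from opposite strands, the capitals of the pair are reverse complements of each other. The windows are 74% and 73.7% G and C.

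For Col18a1 the table holds windows of 2 starts, both on the minus strand of chromosome 10, at chr10:77166481-77166780 and chr10:77113656-77113955. They are shown because this gene had the largest rise and because the starts differ in sequence. Capitals mark the GC box GGGCGG, searched on both strands.
Col18a1, first window: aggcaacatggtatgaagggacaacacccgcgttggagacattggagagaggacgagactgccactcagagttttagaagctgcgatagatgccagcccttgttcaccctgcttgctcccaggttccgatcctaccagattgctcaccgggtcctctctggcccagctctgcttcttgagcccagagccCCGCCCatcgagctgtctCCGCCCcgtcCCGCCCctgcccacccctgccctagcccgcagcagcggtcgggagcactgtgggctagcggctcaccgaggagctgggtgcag
Col18a1, second window: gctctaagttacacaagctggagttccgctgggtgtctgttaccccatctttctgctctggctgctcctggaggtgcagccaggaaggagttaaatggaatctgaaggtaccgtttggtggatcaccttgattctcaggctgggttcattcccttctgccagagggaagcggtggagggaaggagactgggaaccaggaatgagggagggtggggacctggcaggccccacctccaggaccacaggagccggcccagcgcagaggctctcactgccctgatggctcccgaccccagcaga
The first window holds 3 GC boxes in 63.3% G and C, and the second holds none in 59.7%. Which start the array probes report on was not tested.

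In 38 windows of 35 collagen genes, the GC box was present in 23 (60.5%), against 35.7% of all 32851 windows. The core of the aryl hydrocarbon response element, GCGTG on either strand, stood in 10 of the 38 (26.3%) against 32.4% of all windows, once each in Col4a1 and Col4a2 and not in either window of Col18a1. The CCAAT box was in 13 (34.2%) against 37.4%, and TATAAA in 5 (13.2%) against 13.6%. A match says only that the letters are there.

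Genes that make, trim, break down or sense collagen were examined beside the chains at the high dose in lung, where 1.36% of all genes were called higher and 0.565% lower. Of 17 genes of collagen synthesis and folding in the cell, 0 were called. Of 12 for procollagen processing and cross-linking, 1 was called, lower: a second probe of Tll1, a procollagen C-proteinase (-0.59 ± 0.14 SE, adjusted p = 0.0165), whose brightest probe changed by -0.07. Of 8 collagen receptors, 1 was higher, the integrin chain Itga2 (0.59 ± 0.13 SE, adjusted p = 0.00785). Outside the high-dose comparison, Colgalt1 of the synthesis list was called higher in the lung trend (0.59 ± 0.15 SE, adjusted p = 0.0167), beside 1.16% of all genes. Adamts14 of the processing list was called lower at the medium dose (-0.71 ± 0.16 SE, adjusted p = 0.0202), beside 0.148% of all genes.

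Among the matrix partners of collagen, 3 of 10 fibril partners were called higher, beside 1.36% of all genes. Postn, which binds type I collagen, rose 1.73-fold (0.79 ± 0.12 SE, adjusted p = 0.000488) and Tnxb rose 1.59-fold (adjusted p = 0.0335). Sparc was called by a second probe (1.57-fold, adjusted p = 0.0294), while its brightest probe changed by 0.51 (adjusted p = 0.084). Among 10 genes of collagen breakdown and its inhibitors, Mmp8, the neutrophil collagenase, rose 4.55-fold (2.19 ± 0.35 SE, adjusted p = 0.000607). Its log2 ratio was 0.33 to 1.27 in the vehicle lungs and 1.95 to 3.89 in the high-dose lungs.

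Cell type markers were followed in the same lungs, where 1.36% of all genes were called higher and 0.565% lower. Of 8 fibroblast markers 0 were called, and their mean log2 ratio was 1.17 to 1.75 in the vehicle and 1.32 to 1.51 in the high-dose lungs. Of 5 endothelial markers, Cdh5 (0.82, adjusted p = 0.0131) and Pecam1 (0.74, adjusted p = 0.0025) were higher, while the mean over the 5 was 4.11 to 4.53 and 4.26 to 4.67. Of 6 smooth muscle markers 0 were called, with means of 0.83 to 1.55 and 0.69 to 1.39. Heart muscle markers ranged from 0.05 to 4.03 in the vehicle and from 0.11 to 4.42 in the high-dose lungs. Mesothelial markers ranged from -2.39 to 0.70 and from -2.14 to 0.39, and adipocyte markers from 1.25 to 3.52 and from 1.12 to 4.4. The part of these cell types in the rise of Col18a1 and Col4a2 was not tested.

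One low-dose lung stood apart in the epithelial chains. Mouse 6 read 2.50 for Col17a1, while the other low-dose lungs read 0.70, 0.77 and 0.96, and it read -1.30 for Col7a1, while the others read -1.75, -1.72 and -1.76. On the same array the mean of the squamous keratins was 3.82, against -0.79 to -0.65 on the other low-dose arrays, and that of 4 skeletal muscle markers was 3.76, against -0.80 to -0.55. With that mouse the low-dose change of Col17a1 was 0.67 (adjusted p = 0.349 in limma), and without it 0.25 (adjusted p = 0.689).

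In the forestomach no chain was called at any dose or in the trend. At the high dose 0.102% of all genes were called (0.0942% higher and 0.00807% lower) and in the trend 0.0888% (0.0834% higher), while at the low and medium dose 0% were. At the high dose 11 chains (26.2%) had an unadjusted p below 0.05, against 12% of all genes. In 3 of 42 (7.14%) the high-dose forestomachs lay above all vehicle forestomachs, against 1.33% of all genes. The median change of the 42 chains was 0.11, against 0 over all genes.

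These 3 chains were Col18a1, Col6a5 and Col1a1. Col18a1 read -0.48, -0.98, -1.03, -0.62 and -0.97 in the vehicle and 0.10, -0.15, -0.12, 0.11 and -0.41 in the high-dose forestomachs, a change of 0.72 ± 0.21 SE (adjusted p = 0.244). Within the forestomach slides 1, 2 and 3, which held 2, 2 and 1 mice of each group, the change was 0.79, 0.70 and 0.62. So the chain with the largest rise in lung also read higher here in all 5 high-dose mice, without passing the adjusted threshold.

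Col6a5 read 1.20, 1.18, 0.90, 1.16 and 1.57 in the vehicle and 1.71, 1.84, 1.96, 2.28 and 1.61 in the high-dose forestomachs. Its change of 0.68 ± 0.15 SE had the lowest adjusted p of any chain there, 0.0993, and 0.0534 with slide as a block. Col1a1 read -1.89, -1.45, -1.81, -1.72 and -1.47 in the vehicle and -1.42, -1.10, -0.97, -0.98 and -0.48 in the high-dose group (0.67 ± 0.17 SE, adjusted p = 0.192). The lowest high-dose mouse was just above the highest vehicle mouse.

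Of the epithelial chains, Col7a1 read 0.34, 1.21, 0.72, 0.32 and 0.58 in the vehicle and 0.81, 1.43, 1.18, 1.55 and 1.86 in the high-dose forestomachs, a change of 0.73 ± 0.24 SE (adjusted p = 0.322) with overlap through vehicle mouse 2. Col17a1 changed by 0.53 (adjusted p = 0.646), while the squamous keratin mean was 4.77 to 4.99 in the vehicle and 4.57 to 4.86 in the high-dose group. After median centring Col1a1 (1.01, adjusted p = 0.0476) and Col7a1 (0.98, adjusted p = 0.0349) were called, and Col7a1 also in the trend. The remaining always-followed chains gave 0.34 for Col3a1, 0.28 for Col4a2, 0.14 for Col1a2, -0.01 for Col4a1, 0.11 for Col6a1 and 0.33 for Col6a2. None of the genes of the collagen pathway lists was called in forestomach at the high dose.

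In the liver no chain was called at any dose or in the trend, where 0% of all genes were called at the low and medium dose, 0.00538% at the high dose and 0.0135% in the trend (0.00807% higher). At the high dose 2 chains (4.76%) had an unadjusted p below 0.05, against 10.4% of all genes. The shares of all genes given here come from a fit without slide. Its spread includes the difference between slides, so low shares do not show that liver failed to respond. No gene of the pathway or cell type lists was called in liver at the high dose. The high-dose changes of the fibrillar chains were large but followed the slide. Col1a1 read -5.47, -5.30, -5.61, -5.33 and -2.88 in vehicle mice 1 to 5 and -5.39, -5.23, -2.40, -2.62 and -2.48 in high-dose mice 16 to 20. The values above -3 were those of slide 3, 1 in the vehicle and 3 in the high-dose group. The change of 1.29 ± 0.86 SE (adjusted p = 0.704) became 0.20 ± 0.13 SE with slide as a block and 0.12 ± 0.14 SE without that slide.

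The same held for Col1a2 (0.99, then 0.00 with the block and 0.00 without the slide) and Col3a1 (0.89, then 0.23 and 0.39). Col4a2 gave 0.54, then 0.23 and 0.27. Col18a1, the abundant liver chain, read 3.71, 3.72, 3.37, 3.11 and 3.02 in the high-dose livers, a change of -0.13 ± 0.16 SE, which was 0.05 ± 0.08 SE with the block. Under median centring, which moved the median change of all genes to -0.12, the liver changes of Col1a1, Col1a2 and Col3a1 were -0.65, -1.26 and -0.92, so their direction depended on the centring.

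**Figure D4:**
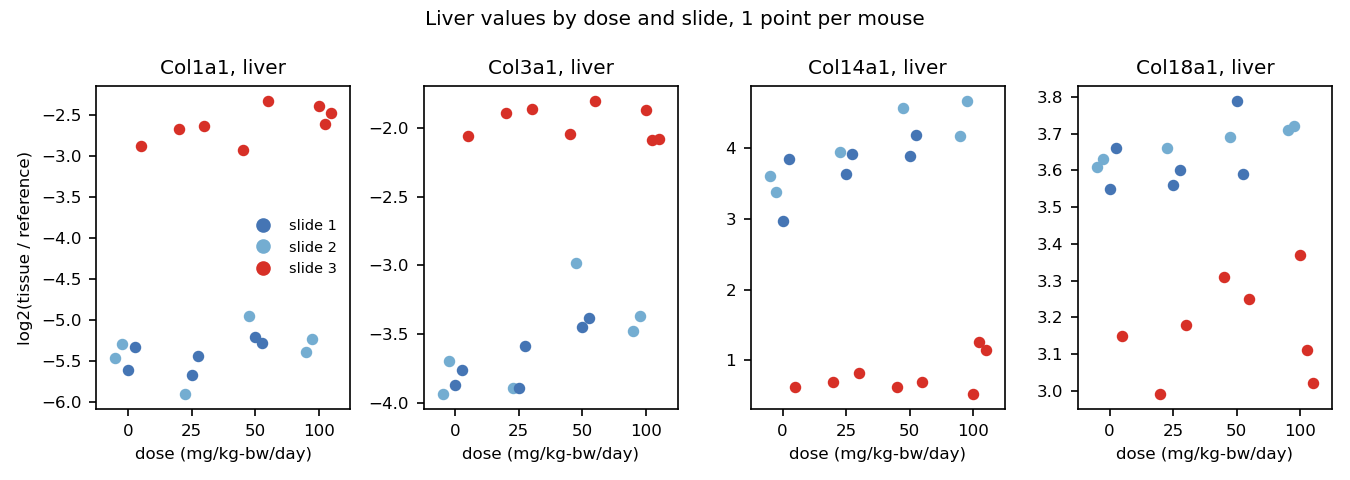
Log2 ratio of liver over reference RNA (y axis) by dose in mg/kg-bw/day (x axis) for Col1a1, Col3a1, Col14a1 and Col18a1; 1 point per mouse, coloured by slide. The 8 points of slide 3 lie nearer to 0 than all points of slides 1 and 2, in each of the 4 chains and at every dose.

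Col14a1 was the only chain called in liver at the high dose when slide 3 was left out. On slides 1 and 2 it read 3.60, 3.38, 2.97 and 3.85 in vehicle mice 1 to 4 and 4.17 and 4.67 in high-dose mice 16 and 17. Both high-dose livers were above all 4 vehicle livers. However, both were on slide 2, while 2 of these vehicle livers were on slide 1, which held no high-dose liver. The share of all genes called without slide 3 is not set beside this call. On slide 3 it read 0.63 in the vehicle mouse and 0.52, 1.26 and 1.15 in the high-dose mice. Over all slides the change was -0.53 ± 1.03 SE (adjusted p = 0.861), with slide as a block 0.72 ± 0.17 SE (adjusted p = 0.0522), and without slide 3 it was called, at 0.97 ± 0.21 SE (adjusted p = 0.0399). Within slide 2 alone the difference was 0.93 and within slide 3 it was 0.34.

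The differences between tissues in the high-dose effect were tested directly. Between lung and liver 1 of 42 chains was called, Col18a1, where 0.439% of all genes were. Its lung effect exceeded its liver effect by 1.27 ± 0.25 SE (adjusted p = 0.00843), and by 1.34 at the second probe (adjusted p = 0.00751). Without liver slide 3 the difference was 1.04 (adjusted p = 0.0222), and with the mouse as a block it was 1.27 (adjusted p = 0.0351). It was not called after median centring (3.58, adjusted p = 0.388) or, for the brightest probe, without high-dose mouse 20 (1.12, adjusted p = 0.0639).

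Between lung and forestomach 0 chains were called, beside 1.03% of all genes, and 6 (14.3%) had an unadjusted p below 0.05, against 14.1% of all genes. The effect of Col18a1 was 0.42 ± 0.28 SE larger in lung (adjusted p = 0.679) and that of Col4a2 0.63 ± 0.19 SE larger (adjusted p = 0.0987), so neither rise was shown to be particular to lung against forestomach. Between forestomach and liver 0 chains were called, beside 0.0404% of all genes, with 4 (9.52%) below an unadjusted p of 0.05 against 9.84% of all genes.

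Chains that share a molecule or a fibril were set against each other across the mice of a tissue, in 12 relations of 4 pairs in 3 tissues with p-values adjusted over the 12. In lung Col4a1 and Col4a2 had r = 0.93 and rho = 0.92 over 19 mice (permutation adjusted p = 2.4e-05 for each), and r = 0.91 without the 2 mice farthest from the median of Col4a1. Within lung slides 1, 2 and 3 it was 0.95, 0.93 and 0.95, and after centring on slide and dose group 0.88. The pair was thus correlated within slides and after centring on dose group too. The permutation of the pooled values shuffled mice across dose groups and slides, so its p also covers differences between those. Pairs of unrelated genes were not examined, so whether the tie is particular to partner chains was not tested. A resampled p of 1e-05 is the smallest that 100000 resamples can give.

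**Figure D5:**
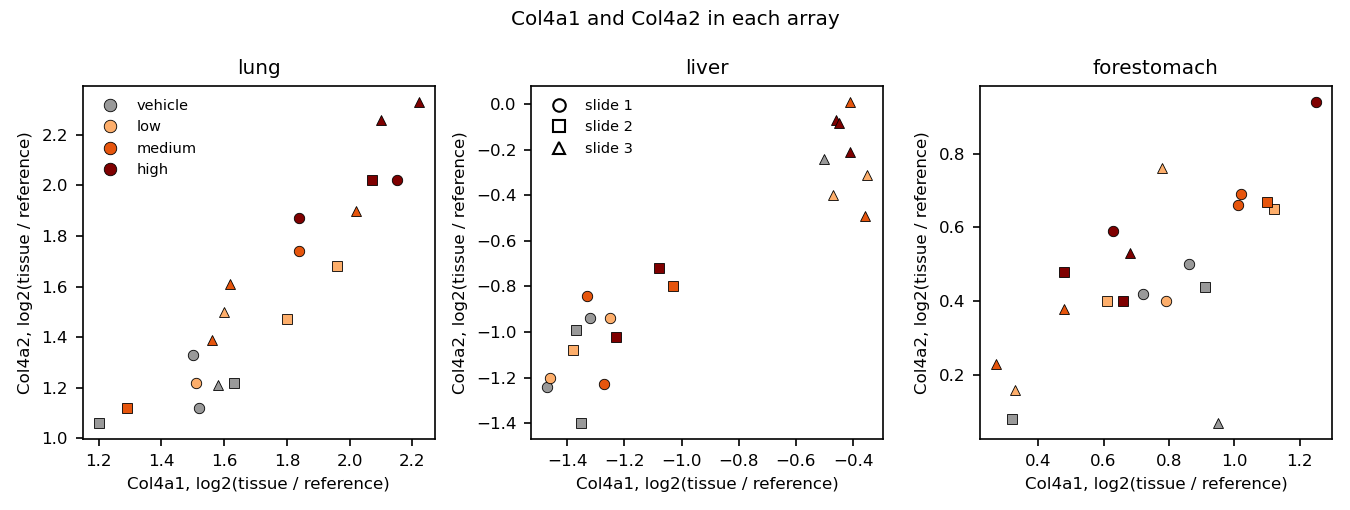
Log2 ratio of Col4a2 (y axis) against Col4a1 (x axis), 1 point per array, in lung, liver and forestomach; colour gives the dose group and shape the slide. In lung the points follow 1 line with the high-dose mice at its upper end, and in liver the arrays of slide 3 form a cluster of their own.

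The other lung pairs were Col1a1 with Col1a2 (r = 0.68, rho = 0.53, permutation adjusted p = 0.00179 and 0.0221), Col1a1 with Col3a1 (r = 0.74, rho = 0.76) and Col6a1 with Col6a2 (r = 0.78, rho = 0.76). Without the 2 farthest mice r was 0.55, 0.65 and 0.69. After centring on slide and dose group these 3 gave 0.76, 0.56 and 0.85. Within lung slides 1, 2 and 3, Col1a1 gave 0.45, 0.87 and 0.95 with Col1a2 and 0.63, 0.91 and 0.78 with Col3a1. Col6a1 with Col6a2 gave 0.51, 0.87 and 0.92. In forestomach, over 20 mice, Col4a1 with Col4a2 gave r = 0.69 (rho = 0.67), Col1a1 with Col3a1 0.81 (0.78), Col1a1 with Col1a2 0.65 (0.55) and Col6a1 with Col6a2 0.49 (0.65). Without the 2 farthest mice these were 0.57, 0.68, 0.49 and 0.52. The last had the highest permutation adjusted p, 0.0294. Within forestomach slides 1, 2 and 3, Col4a1 with Col4a2 gave 0.84, 0.86 and 0.22. Col1a1 gave 0.78, 0.81 and 0.85 with Col3a1 and 0.21, 0.36 and 0.96 with Col1a2, and Col6a1 with Col6a2 gave 0.97, 0.79 and 0.94.

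In liver the arrays fell into clusters by slide, so no pooled value is given. Within liver slides 1, 2 and 3, Col4a1 and Col4a2 gave r = 0.51, 0.76 and -0.28, and Col6a1 with Col6a2 gave 0.86, 0.54 and 0.08. Both pairs had their lowest value on the weak slide. Centred on slide and dose group they gave 0.34 and 0.29 over 20 mice (permutation adjusted p = 0.15 and 0.217), while Col1a1 with Col1a2 and with Col3a1 gave 0.61 and 0.74.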

How the data were processed

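RNA of lung, liver and forestomach was hybridised on 2-colour Agilent mouse arrays, the sample in Cy5 and the universal reference in Cy3, with no dye swap. The deposited scanner files hold spot intensities from Feature Extraction 10.7.3.1, per the file headers. The deposited value table holds the authors' log2 ratios, normalized by lowess on median intensities without background correction; its columns have medians between -0.041 and -0.00718 and correlate with the scanner log2 ratios at 0.967 to 0.999, which gives scale and direction, while its handling of repeated spots stayed unknown.

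The scanner intensities were normalized again by loess within each array without background correction, after leaving out control and non-uniform spots, and repeated spots were averaged (limma 3.58.1, R 4.3.3). Probes were named by accession through the RefSeq gene table (GRCm38.p6): 26413 of 55681 matched. Dose groups were compared within a tissue, and vehicle groups between tissues, by limma's moderated test, where the study's methods used another linear model; a gene was called when any of its probes was. Named in full were every chain called with dose, the 5 largest differences each way between vehicle tissues, and Col1a1, Col1a2, Col3a1, Col4a1, Col4a2, Col6a1, Col6a2, Col7a1 and Col17a1; other chains were named after their values were seen. Folds written "at least" compare Cy5 signals with the lowest signal well above background. Correlations used permutation tests with 100000 resamples.

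Arrays of one number come from the same mouse. Between lung and liver of the 5 vehicle mice, their deviations from the group means correlated at -0.046 to 0.348 over 4828 probes. The median was -0.036, and 1 mouse was above 0.1. Over all mice the medians were 0.01 (lung with liver), 0.042 (lung with forestomach) and 0.045 (forestomach with liver). The mouse was still tried as a block. The members and gene lists were chosen with earlier results of these data known. The scripts were tested on simulated data. The number of arrays limits the precision. The result of 1 further gene list is not reported here.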

Additional observations from a re-analysis of the deposited data

Results flagged for a closer look

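In 10 collagen chains, mice far from the rest of their group were looked for, in 120 groups of 4 or 5 mice, and 15 such values were found; chance alone gives about 1 in 20 groups.

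Of these, 8 were the vehicle liver of mouse 5, hybridised on liver slide 3, which had few probes above background. Its log2 ratio was -2.88 for Col1a1 (others -5.61 to -5.30), -2.63 for Col1a2 (others -5.12 to -4.81), -2.06 for Col3a1 (others -3.94 to -3.70) and -0.50 for Col4a1 (others -1.47 to -1.32). It was -1.19 for Col6a1, -0.84 for Col6a2 and -0.40 for Col7a1, each above the other vehicle livers, and 3.15 for Col18a1, below them. All 8 lay nearer to 0 than the other vehicle livers.

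In the low-dose lung of mouse 6, Col17a1 read 2.50 (others 0.70 to 0.96) and Col7a1 read -1.30 (others -1.76 to -1.72), on the array where squamous keratins and skeletal muscle markers were also high. In the high-dose lung of mouse 16, Col6a1 read -1.10 (others -0.66 to -0.60). In forestomach, Col18a1 read -0.89 in medium-dose mouse 15 (others -0.08 to 0.22), Col4a1 read 1.25 in high-dose mouse 19 (others 0.48 to 0.68) and Col6a1 read -0.95 in high-dose mouse 16 (others -0.62 to -0.49). In the high-dose liver of mouse 19, Col17a1 read -0.11 (others -0.23 to -0.21), where the probe was not well above background.

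The high-dose effect on Col18a1 differed between lung and liver, by 1.27 and 1.34 in log2 ratio at its probes (adjusted p = 0.00843 and 0.00751).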

How the results depend on the processing

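The counts of called collagen genes were recomputed with normexp background correction, median centring, the authors' ratios, a filter on dim probes, the brightest probe alone, slide and mouse as blocks, and without each mouse. No called result changed direction. The shares of all genes called under these settings are not set beside the counts below. Median centring called 8 chains in the lung at the high dose, in place of 2, and 6 in the lung trend, 2 and 1 in forestomach at the high dose and in the trend, and 0 for the effect in lung against liver. The authors' ratios called 4 in the lung at the high dose. Leaving out 1 mouse gave 2 to 4 there, with 4 when vehicle mouse 2 or high-dose mouse 16 or 18 was left out. With slide as a fixed block the effect in lung against liver called 2. Without liver slide 3 the liver called 1 at the high dose and 1 in the trend. The cause was not tested. Between vehicle tissues, leaving out 1 mouse gave 18 to 22, 14 to 17 and 17 to 19 chains, and with the mouse as a replicate block the counts stayed 20, 15 and 19, with no other call changed. The 4 partner relations in lung and the 4 in forestomach also passed by Pearson's r after centring on slide and dose group (in lung, the rank correlation of Col1a1 with Col3a1 had a permutation adjusted p of 0.0575), and 2 of the 4 in liver did. Signal over background limits the liver, where 3 of 42 chains were above background on every array, those of the weak slide 3 included.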
